A study of Homo sapiens with 18 samples.

Results

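Clone 9-1 is a line of H9 human embryonic stem cells in which ZNF263 was knocked out on both alleles with Cas9. Its 3 RNA-seq libraries were compared with the 3 libraries of unedited H9, out of 18 libraries in the series. Of 27130 gene symbols in the count table, 24478 lie on an autosome, and 14361 of these had enough reads in the 6 libraries to be tested. The series also holds H1 lines with their own ZNF263 clones, not used here, and a second H9 knockout clone, 9-D, whose 3 libraries were used for 1 direct comparison of the clones. The stated aim of the series is to learn the role of ZNF263 in pluripotency.

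H9 (WA09) is an established line of pluripotent stem cells. Both groups are H9 cells whose polyadenylated RNA was sequenced, and the labels give no treatment and no time point. The knockout group is a single clone, so effects of losing ZNF263 and features of this clone cannot be told apart from these 6 libraries. The position of the edit in the gene is not given in the sources used here, nor whether the libraries of a group came from separate cultures. The p-values below therefore measure the spread between these libraries, which may be technical. In bulk RNA, fewer cells with a transcript and less transcript per cell cannot be told apart.

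ZNF263 is a zinc finger transcription factor with a SCAN and a KRAB domain, known to bind G-rich DNA that holds repeats of GGAGGA. Human embryonic stem cells are kept in a primed pluripotent state by POU5F1, SOX2 and NANOG, together with NODAL and FGF signals from the culture and from the cells themselves. A naive state, closer to the early epiblast, is marked by other factors such as KLF4, TFCP2L1, DPPA3 and DNMT3L.

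Library totals were 14156770 to 15996191 counts in wild type and 13548941 to 21007799 in 9-1, so a count of 0 allowed a level of up to 0.143 to 0.221 CPM in a library. Levels are CPM, reads of a gene relative to the library total, scaled by TMM, a correction for composition between libraries. They are not corrected for gene length, so they compare a gene between libraries and not with another gene. The first principal component held 61.1% of the variance, and the 3 libraries of 9-1 lay on one side of it with the wild type on the other. Stem cell markers were high in all 6 libraries, with EPCAM at 295 to 391 CPM in wild type and 308 to 352 in 9-1, and CDH1 at 384 to 410 and 358 to 403. Several defining markers of other cells were at or near 0: CGA had no read, CDX2 had 2 reads in each group, DCN had 0 reads in wild type and 2 in 9-1, and LUM had 2 and 0. COL3A1 had 8 and 20 reads. COL1A1, also a defining fibroblast marker, was not near 0, at 155 to 179 CPM in wild type and 219 to 262 in 9-1. The summed level of all 17 fibroblast and feeder markers, which include the primed markers THY1 and VIM, was 1694 to 1823 CPM in wild type and 1787 to 1917 in 9-1. Of 13 tested, 3 were higher (COL1A1, FN1 and VIM) and 6 lower (COL1A2, COL5A1, THY1, POSTN, PDGFRB and S100A6), with a median of -0.35, and their part in other results was not tested. The third 9-1 library carried more primitive streak transcripts than the other 5, as given with those genes.

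ZNF263 itself was still transcribed in the clone. Its level was 40.2, 44.8 and 42.9 CPM in wild type and 37.5, 36.6 and 34.7 CPM in 9-1. The groups did not overlap, and the log2 fold change of 9-1 over wild type was -0.23 (SE 0.070, adjusted p = 0.0135 by the quasi-likelihood test of edgeR, n = 3 and 3), a 1.17-fold fall. The call was lost without the third 9-1 library (adjusted p = 0.0696) or the second wild-type library (adjusted p = 0.051). A small edit can leave the transcript in place, so gene-level counts do not check the knockout label.

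Many genes differed between the clone and wild type, and most differences were small. At an adjusted p under 0.05, 2005 autosomal genes were higher in 9-1 (14.0% of those tested) and 2102 were lower (14.6%), together 28.6%. The median size of a called difference was 1.29-fold, and 3000 of the 4107 called genes differed by less than 1.5-fold. At least 2-fold differences were called for 432 genes (3.01%), with 179 higher (1.25%) and 253 lower (1.76%), and at least 4-fold for 52 higher and 29 lower. The 3 libraries of 9-1 lay wholly above wild type for 20.4% of the genes tested and wholly below for 20.0%, together 40.4%. DESeq2 called 1600 higher and 1560 lower from the same libraries. The median log2 fold change over all autosomal genes tested was -0.00.

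**Figure D1:**
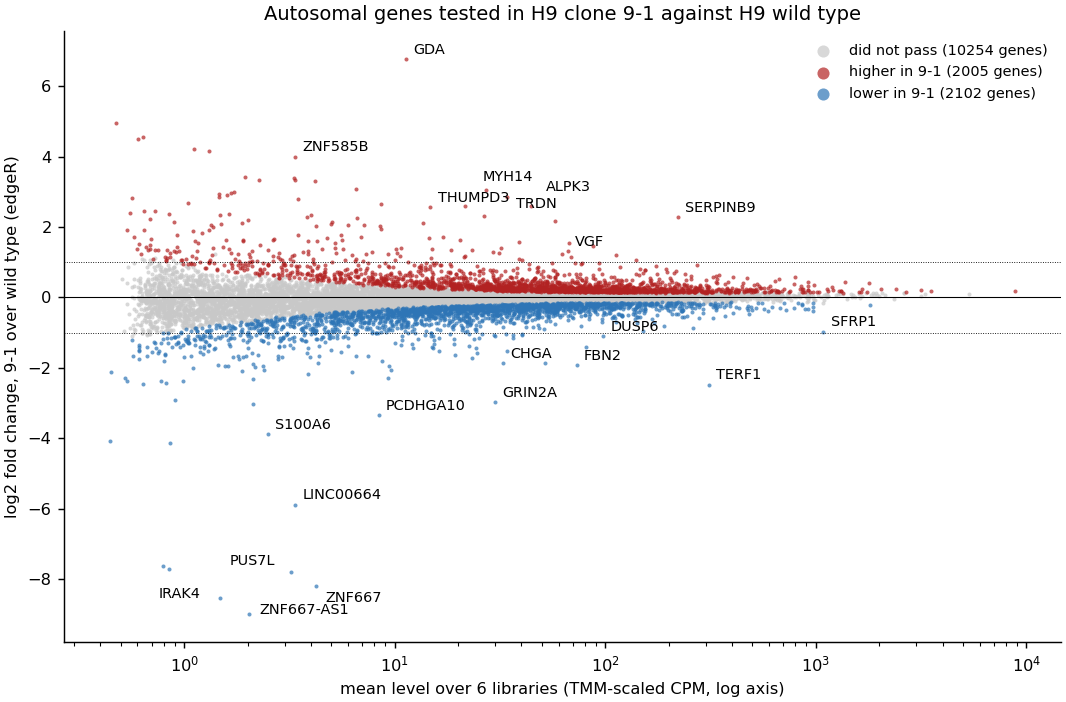
Each point is 1 of 14361 autosomal genes. The x axis is its mean level over 6 libraries (TMM-scaled CPM, log axis) and the y axis the log2 fold change of 9-1 over wild type. Red and blue points passed an adjusted p of 0.05 and dotted lines mark 2-fold. GDA stands far above the other genes, and ZNF667, ZNF667-AS1, PUS7L and IRAK4 far below, where the fitted fold depends on a count added for genes near 0.

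Called differences leaned one way at high levels and the other at low levels. Of 2308 genes with a mean of 100 CPM or more, 563 were higher in 9-1 and 264 lower. Among 3892 genes at 1 to 10 CPM, 334 were higher and 601 lower. The 2-fold changes sat mostly at the low end, with 262 called between 1 and 10 CPM against 4 at 100 CPM or more. Among 616 long non-coding RNAs 49 were higher and 63 lower, and 15 and 17 of these passed 2-fold. Changes were spread over all 22 autosomes: the median log2 fold change per chromosome lay between -0.028 (chromosome 15) and 0.041 (chromosome 21), and the share of genes called between 25.6% (chromosome 22) and 31.6% (chromosome 12).

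Core pluripotency genes were more often higher than lower in the clone. Of 29 tested core pluripotency genes, 21 were higher in 9-1 and 2 lower, with a median log2 fold change of 0.28. The 2 central factors POU5F1 and SOX2 did not pass: POU5F1 was 1393, 1497 and 1375 CPM in wild type and 1549, 1439 and 1591 in 9-1 (log2 0.10, SE 0.055, adjusted p = 0.171), and SOX2 was 387 to 413 CPM and 405 to 414 (log2 0.04, adjusted p = 0.655). NANOG, the third factor, went from 43.3, 44.5 and 47.8 CPM to 61.5, 61.5 and 59.4. The 2 groups did not overlap, and the rise was 1.35-fold (log2 0.43, SE 0.064, adjusted p = 4.88e-06). DNMT3B, the de novo DNA methyltransferase of stem cells, went from 1573, 1407 and 1629 CPM to 2047, 2009 and 2109, a 1.34-fold rise (adjusted p = 7.26e-07). LIN28A, which blocks maturation of let-7 microRNAs, was 1638 to 1676 CPM in wild type and 1779 to 1923 in 9-1 (log2 0.15, adjusted p = 0.0306), a call that 4 of the settings without 1 library lost.

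Other core genes that rose were ZFP42 (log2 0.89), UTF1 (0.76), DPPA2 (1.19), PRDM14 (0.48) and DPPA4 (0.38). GAL, the precursor of the neuropeptide galanin and abundant in stem cells, rose from 62.8, 71 and 70.1 CPM to 146, 155 and 173 (log2 1.22, SE 0.065, adjusted p = 2.14e-15). FGF4, a growth factor controlled by POU5F1 and SOX2, was near the limit of detection in wild type at 0.261 to 0.698 CPM and reached 1.05 to 3.08 CPM (log2 2.05, adjusted p = 0.000124). The 2 members that fell were TERF1, described with the largest falls, and PODXL, a surface sialomucin (log2 -0.22). TERT, CD9, VRTN and TRIM71 did not pass.

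Most naive markers that could be tested rose. Of 11 tested naive markers, 8 were higher and 1 was lower, with a median log2 fold change of 1.19, while 9 further members, KLF17, DPPA5 and ESRRB among them, had too few reads to be tested. DPPA3 and TBX3 were tested only because of their reads in 9-1. Such members tilt the share and the median of the list upward. DPPA3, a maternal factor that protects methylation imprints, went from 0.457, 0.419 and 0.558 CPM to 2.77, 2.13 and 2.58 (5.05-fold, adjusted p = 1.29e-06). TFAP2C, a transcription factor needed for the naive state, rose from 5.03 to 6.32 CPM in wild type to 13.2 to 16.6 CPM (log2 1.37, SE 0.13, adjusted p = 5.90e-10). DNMT3L, the catalytically inactive partner of the de novo methyltransferases, rose from 2.1 to 2.35 CPM to 4.04 to 6.51 (log2 1.31), TBX3 from 0.349 to 0.806 to 1.43 to 2.54 (log2 1.93), and NLRP7 from 0.978 to 1.49 to 1.87 to 4.16 (log2 1.49). KLF4 (log2 0.56) and TFCP2L1 (0.42) rose as well, KLF5 (0.54) did not pass, and SUSD2, a surface marker of naive cells, fell (-0.41). All these transcripts stayed low: the summed level of 20 naive markers was 62.8 to 70.3 CPM in wild type and 90.4 to 114 in 9-1.

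Primed markers moved the other way. Of 15 tested, 10 were lower and 2 higher, with a median of -0.30. DUSP6, a phosphatase that switches off ERK, fell from 128, 143 and 130 CPM to 64.2, 58.4 and 64.5 (2.15-fold, log2 -1.10, SE 0.062, adjusted p = 5.70e-15). The zinc finger factors ZIC2 and ZIC5 fell 1.38-fold and 1.41-fold, from 237 to 275 and 91.7 to 95.1 CPM to 180 to 184 and 62.2 to 70.2. OTX2 (log2 -0.37), SALL1 (-0.37), SFRP2 (-0.30), THY1 (-0.29) and PTPRZ1 (-0.36) also fell, and HMX2 fell from 0.978 to 1.8 CPM to 0.224 to 0.286. VIM (0.19) and SALL2 (0.22) rose. CD24 and DNMT3A did not pass.

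Transcripts driven by the endogenous retrovirus HERV-H, which are known to be active in human stem cells, rose in 6 of 9 tested cases, with 1 lower and a median of 0.49. LINC01108 went from 8.1, 7.82 and 10.6 CPM to 33.3, 45.3 and 54.1 (4.99-fold, adjusted p = 5.48e-15). HHLA1 rose from 19.3, 21.7 and 21.4 CPM to 82.7, 93.3 and 107 (4.53-fold), LINC-ROR from 2.94 to 4.21 to 11.8 to 16.5 (3.83-fold), and ABHD12B from 12.8 to 13.8 to 24.5 to 34.4 (2.2-fold). ESRG, the most used stem cell marker of this class, rose by 0.25 on the log2 scale. LINC00678 and CALB1 did not pass, and RPL39L fell (-0.36).

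**Figure D2:**
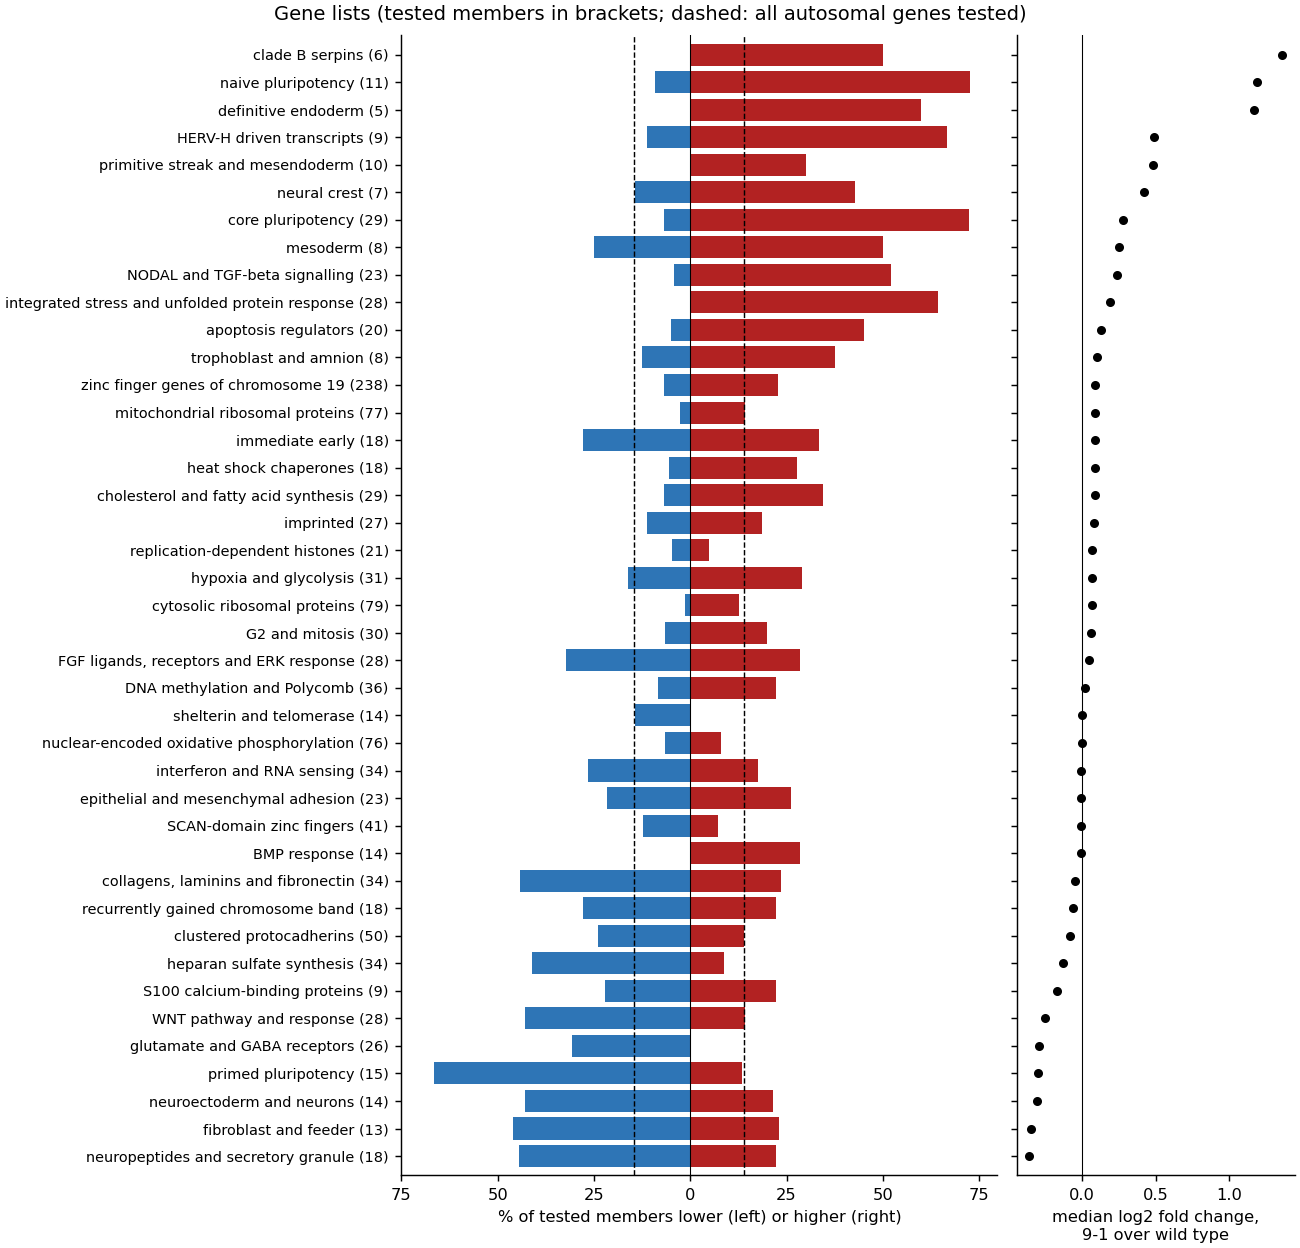
For each of 41 gene lists, the left panel gives the percentage of tested members higher (red, to the right) and lower (blue, to the left) in 9-1, with dashed lines at the shares over all autosomal genes (14.0% and 14.6%). The right panel gives the list's median log2 fold change. Clade B serpins and naive markers have the highest medians (1.36 and 1.19) and neuropeptides the lowest (-0.36). Members low in wild type could be tested through their reads in 9-1, which tilts the serpin and naive medians upward. No test of a list was run.

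The ligands of the NODAL pathway rose together. Of 23 tested genes of NODAL and TGF-beta signalling, 12 were higher and 1 lower, with a median of 0.24, or 0.13 without the third 9-1 library. NODAL, a TGF-beta family ligand that sustains pluripotency and induces mesendoderm, went from 11.5, 13.3 and 14.4 CPM to 27.5, 30.5 and 42.9 (2.56-fold, log2 1.36, SE 0.12, adjusted p = 1.74e-10). GDF3, a related ligand, went from 11.4, 14.7 and 11.4 CPM to 19.4, 22.1 and 31.3 (1.94-fold, adjusted p = 6.57e-07). The groups did not overlap for either gene, and the third 9-1 library was highest for both.

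The inhibitors that NODAL induces rose with it: LEFTY1 from 24 to 29.9 CPM to 45.6 to 51 (1.78-fold, adjusted p = 6.87e-10) and LEFTY2 from 12.2 to 15.2 CPM to 19.7 to 27.2 (log2 0.70). The co-receptor TDGF1 rose slightly (log2 0.25), and SKIL, a SMAD inhibitor, by 0.73. Receptors and SMADs mostly did not pass: SMAD2, SMAD3, SMAD4, ACVR2A, ACVR2B, TGFBR1 and TGFBR2 lay between -0.15 and 0.12, and ACVR1B, a type I receptor for NODAL, fell (-0.62).

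In the FGF group, 8 of 28 tested genes were higher (28.6%, against 14.0% of all genes) and 9 lower (32.1%, against 14.6%). The median was 0.05, and FGF4 was tested only because of its reads in 9-1. Ligands were among the rises: FGF2 (log2 0.52), FGF4 (2.05), FGF19 (0.66) and FGF8, which went from 2.42, 2.37 and 2.73 CPM to 5.76, 5.41 and 8.52 (2.58-fold, adjusted p = 2.13e-06). All 4 receptors fell: FGFR1 (-0.30), FGFR2 (-0.16), FGFR3 (-0.53) and FGFR4 (-0.33). Genes induced by ERK divided. DUSP6 and the transcription factors EGR1 (16.9 to 23.5 CPM to 9.95 to 12, log2 -0.91) and ETV5 (-0.33) fell, ETV4 (0.31), FOSL1 (0.47) and CCND1 (0.28) rose, and SPRY1, SPRY2, SPRY4, DUSP4 and DUSP5 did not pass, at 0.04 to 0.13.

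The WNT list leaned lower, with 12 of 28 tested genes lower (42.9%, against 14.6% of all genes) and 4 higher (14.3%, against 14.0%). Its median was -0.25 (-0.15 without the first 9-1 library). Several WNT antagonists fell. SFRP1 went from 1428, 1450 and 1436 CPM to 703, 797 and 703 (1.96-fold, log2 -0.97, SE 0.056, adjusted p = 1.16e-14), FRZB from 17.1 to 18.2 CPM to 9.81 to 11.2 (1.68-fold) and APCDD1 from 5.27 to 6.99 CPM to 2.66 to 3.72 (1.98-fold). Among the frizzled receptors, FZD2 went from 124, 112 and 118 CPM to 39, 47.9 and 45.3 (2.67-fold, adjusted p = 1.18e-16), FZD1 (-0.62), FZD3 (-0.24), FZD4 (-0.26), FZD6 (-0.26) and FZD8 (-0.73) fell, and FZD5 (0.18) and FZD7 (0.23) rose. Feedback targets of the pathway differed in direction: AXIN2 rose (0.24), NKD1 fell (-0.67), and SP5, ZNRF3 and RNF43 did not pass. In the BMP list 4 of 14 were higher (28.6%) and 0 lower, and the rises were GATA2, BMP4 (1.37-fold), ID1 (1.32-fold) and ID4 (1.32-fold). GATA2 was tested only because of its reads in 9-1, which tilts this share upward.

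Lineage markers differed by list. Of 16 primitive streak and mesendoderm genes, 10 were tested, 3 were higher and 0 lower, with a median of 0.48. This list rested on the third 9-1 library. EOMES was 1.63, 1.68 and 1.18 CPM in wild type and 0.673, 0.387 and 6.44 in 9-1, MIXL1 was 3.53, 4.33 and 2.48 and then 1.35, 1.74 and 9.73, and FGF17 was 0.98, 1.05 and 0.372 and then 0.449, 0.193 and 5.37. In each case the third 9-1 library was above all others, and none of the 3 genes passed. The first and second 9-1 libraries were below every wild-type library for EOMES and MIXL1, while for FGF17 the first lay within the wild-type range. The summed level of the 16 genes was 36.2 to 47.5 CPM in wild type and 52.3, 53.7 and 112 CPM in 9-1. Without that library the median was -0.66, and CER1, a NODAL antagonist called higher with it (log2 0.69, adjusted p = 0.0399), had a log2 fold change of -0.01 (adjusted p = 0.975). NODAL and FGF8 were above every wild-type library in all 3 libraries of 9-1. Without this library 1459 genes were higher and 1757 lower over all autosomal genes.

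Of 12 definitive endoderm genes, 5 were tested and 3 were higher: FOXA2 from 0.349 to 0.653 CPM to 1.42 to 2.29 (3.74-fold, adjusted p = 0.000176), AFP from 1.4 to 2.35 CPM to 4.37 to 4.64 (2.25-fold), and GATA6, whose groups overlapped and whose call was lost in 4 of the alternative settings. SOX17, the defining marker, had 8 reads in wild type and 15 in 9-1. Of 8 tested mesoderm genes, 4 were higher and 2 lower. GATA2 rose from 0.489 to 0.682 CPM to 2.22 to 2.56 (4.23-fold, adjusted p = 4.22e-06), PDGFRA from 4.09 to 4.47 CPM to 7.8 to 10.4 (2.05-fold), and TCF15 fell 1.65-fold. TWIST1, of the mesoderm list, rose from 0.186 to 0.559 CPM to 0.918 to 1.07. Its call was lost with DESeq2 and without the third wild-type library. FOXA2, GATA2 and TWIST1 were tested only because of their reads in 9-1, which tilts the shares of both lists upward. The summed level of 14 mesoderm genes was 323 to 359 CPM in wild type and 318 to 373 in 9-1.

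In the neuroectoderm list 6 of 14 were lower and 3 higher, with a median of -0.31. The summed level of its 26 genes went the other way, at 753 to 814 CPM in wild type and 848 to 927 in 9-1. POU3F1, a POU factor of early neural differentiation, went from 28.8, 26.6 and 23.7 CPM to 12.5, 11.5 and 11.2 (2.25-fold, adjusted p = 4.45e-11). MAP2 (-0.71), ZNF521 (-0.47) and STMN2 (-0.36) fell, while STMN4, ELAVL3 (2.26-fold) and TUBB3 (0.64) rose. STMN4 was tested only because of its reads in 9-1. PAX6 did not pass (log2 -0.48) and SOX1 had 21 and 9 reads. EDNRB, the endothelin receptor of the neural crest, rose from 1.63, 2.51 and 2.91 CPM to 14.6, 14.8 and 15.2 (6.29-fold, adjusted p = 1.63e-14), and the crest factors FOXD3 (1.34-fold) and SOX10 (1.58-fold) were higher. The SOX10 call was lost in 3 of the alternative settings. NGFR, of the same list, fell from 10.3 to 12.4 CPM to 6.43 to 9.09 (1.43-fold, adjusted p = 0.00283). Of 7 tested neural crest genes 3 were higher and 1 lower. Summed levels did not overlap for 14 neural crest genes (58.4 to 59.6 CPM in wild type and 77.1 to 82.3 in 9-1) or 18 trophoblast and amnion genes (525 to 556 and 572 to 615), of which 3 of 8 tested were higher and 1 lower. GATA2, tested only because of its reads in 9-1, is among these 3.

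The largest rise was GDA, guanine deaminase, which turns guanine into xanthine. Its level was 0.131, 0.21 and 0.248 CPM in wild type and 23.3, 22.4 and 21.5 CPM in 9-1, a 110-fold difference (log2 6.78, SE 0.21, adjusted p = 1.99e-21). The wild-type values were close to the limit that a count of 0 allows. ZNF585B, a KRAB zinc finger gene, went from 0.327, 0.349 and 0.496 CPM to 6.51, 7.54 and 5.01 (16-fold), and TRIM58, a ubiquitin ligase of late erythroid cells, from 0.392, 0.768 and 0.62 CPM to 5.76, 5.32 and 7.37 (10.2-fold). These 3 genes were barely transcribed in wild type and clearly transcribed in every library of the clone.

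The 250 bases upstream of these 3 genes are shown because each holds 1 copy of GGAGGA or of its reverse complement TCCTCC, the 6-base core of the ZNF263 motif, here in capitals. Either strand was searched, and 31.2% of 26246 autosomal RefSeq promoters of this length hold a copy, or 35.8% of those found for the genes tested. The table holds promoters of 8 of the 12 largest rises: DPEP3 and ALPK3 hold a copy too, and MYH14, TRDN and EDNRB hold none. Of the promoters found for genes higher at least 2-fold 33.1% hold a copy, and for genes lower at least 2-fold 38.3%. Promoters were found for 67.6% and 71.1% of these genes, and the shares were not tested. The sequences are from RefSeq (GRCh38.p14): GDA at chr9:72149190-72149439 on the plus strand, ZNF585B at chr19:37210537-37210786 on the minus strand, and TRIM58 at chr1:247856937-247857186 on the plus strand. A match describes the letters and shows no binding.
GDA: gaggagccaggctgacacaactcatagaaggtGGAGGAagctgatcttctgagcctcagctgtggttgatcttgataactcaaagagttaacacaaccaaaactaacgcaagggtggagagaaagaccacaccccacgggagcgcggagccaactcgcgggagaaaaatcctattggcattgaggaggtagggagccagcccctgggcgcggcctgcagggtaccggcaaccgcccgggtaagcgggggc
ZNF585B: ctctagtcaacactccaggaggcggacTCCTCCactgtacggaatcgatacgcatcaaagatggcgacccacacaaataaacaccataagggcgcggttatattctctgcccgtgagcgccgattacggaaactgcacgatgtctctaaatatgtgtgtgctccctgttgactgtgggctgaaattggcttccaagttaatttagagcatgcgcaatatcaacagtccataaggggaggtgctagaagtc
TRIM58: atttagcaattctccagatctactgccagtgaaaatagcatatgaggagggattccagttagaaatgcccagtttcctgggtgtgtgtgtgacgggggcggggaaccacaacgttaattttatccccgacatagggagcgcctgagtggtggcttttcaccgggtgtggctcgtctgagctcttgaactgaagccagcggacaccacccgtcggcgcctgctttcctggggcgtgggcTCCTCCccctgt

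MYH14, a non-muscle myosin heavy chain, went from 4.51, 7.12 and 6.01 CPM to 51, 44.6 and 50.1 (8.25-fold, adjusted p = 5.34e-20). TRDN encodes triadin, an anchor of the calcium release channel of muscle, and went from 6.86, 9.92 and 8.18 CPM to 60.8, 66.5 and 52.5 (7.25-fold, adjusted p = 8.12e-20). ALPK3, a kinase-like gene of heart muscle, rose from 11.3 to 14.7 CPM to 67.6 to 82.7 (6.1-fold), and ACTA1, skeletal muscle actin, from 39.6 to 51.4 CPM to 127 to 131 (2.76-fold, adjusted p = 1.11e-16). For none of these 4 genes did the groups overlap, which the rule that named MYH14, TRDN and ALPK3 required.

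SERPINB9, an inhibitor of granzyme B, gave the smallest p of any rise. It went from 79.4, 73.8 and 73.6 CPM to 366, 381 and 356 (4.86-fold, log2 2.28, SE 0.058, adjusted p = 8.39e-24). Its relatives SERPINB3 and SERPINB4, protease inhibitors first known from squamous carcinoma, rose from 0.131 to 0.558 CPM to 2.24 to 3.29 and from 0.98 to 1.8 CPM to 5.85 to 8.15. These 2 neighbours are near-identical, so reads may have been divided between them. Of 6 tested clade B serpins 3 were higher and 0 lower, and SERPINB1, SERPINB6 and SERPINB8 did not pass. A further 7 members had too few reads to be tested. SERPINB3 was tested only because of its reads in 9-1, which tilts the share of the list upward.

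THUMPD3, a tRNA guanosine methyltransferase, rose from 4.12, 4.4 and 4.34 CPM to 24.3, 26.1 and 25.5 (5.91-fold, adjusted p = 9.43e-18), while its overlapping antisense gene THUMPD3-AS1 was 17 CPM on average in wild type and 16.8 in 9-1. FAM20A, a pseudokinase of enamel formation, rose 6.05-fold from 5.89 to 6.6 CPM, and FAM109B 6.91-fold from 0.654 to 0.991 CPM. LOC101928254 (10.5-fold), the pseudogene PDCL3P4 (9.82-fold) and DPEP3, a membrane dipeptidase (8.4-fold), complete the 12 largest rises. These were taken among genes of at least 5 CPM in one group, with no overlap between the groups.

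**Figure D3:**
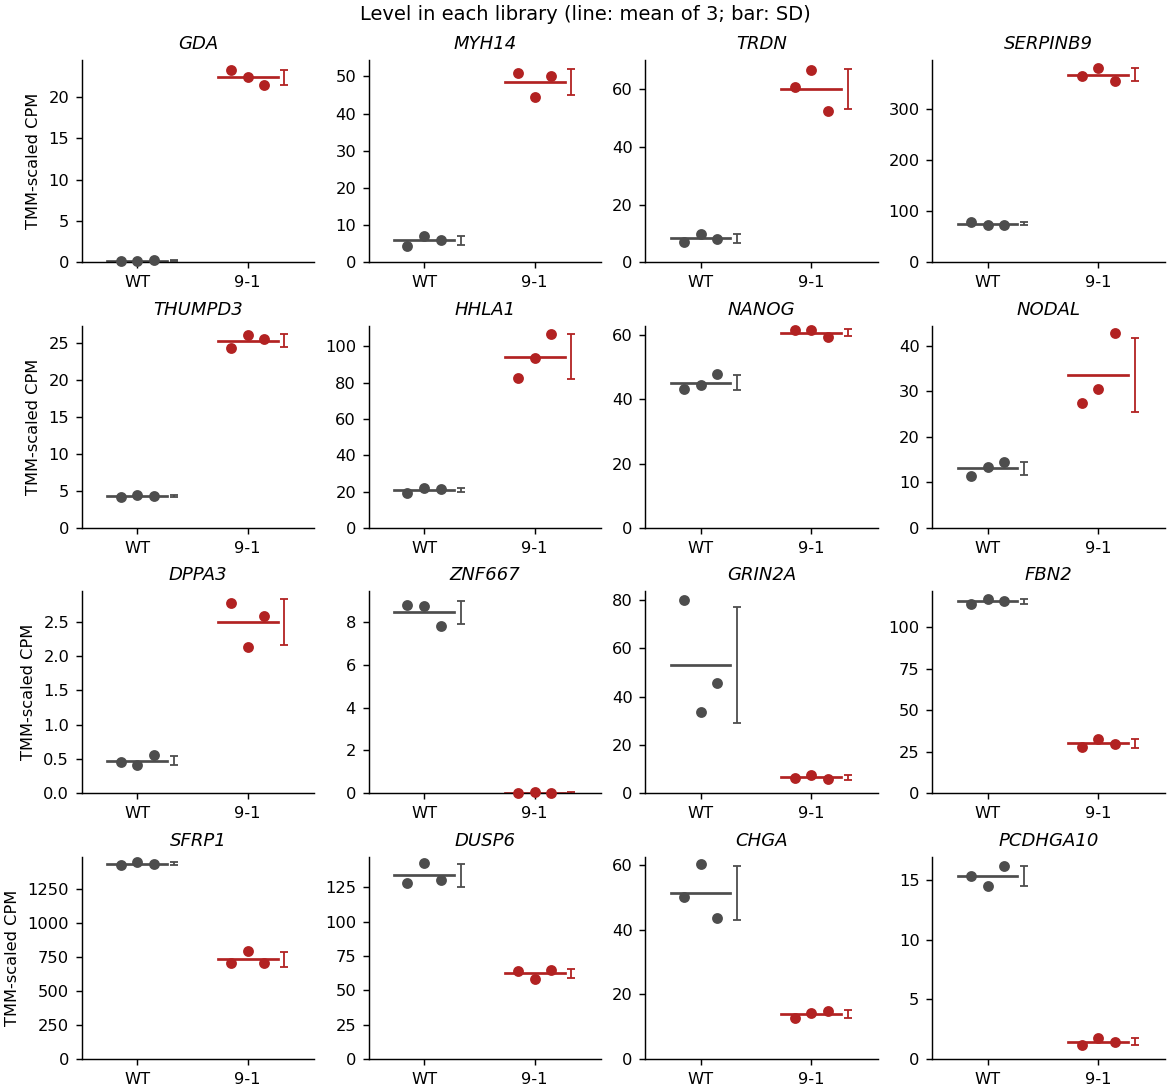
Level of 16 genes in each library (y axis, TMM-scaled CPM from 0; 3 wild-type libraries in grey, 3 of 9-1 in red), with the mean as a line and the SD as a bar. The groups do not overlap in any panel, which was a condition for naming the largest rises and falls among them. GDA and ZNF667 are close to 0 in one group, and NODAL in 9-1 and GRIN2A in wild type vary between libraries of the group.

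A small set of genes was silent in the clone. With at most 3 reads over the 3 libraries of 9-1 and at least 60 in wild type, 6 genes met the rule, and 0 genes met it in the other direction. ZNF667, a KRAB zinc finger gene, had 134, 125 and 126 reads in wild type and 0, 1 and 0 in 9-1. As a ratio of reads per library total it was 416-fold lower (95% exact counting interval from 74.3 to 16492). PUS7L, a pseudouridine synthase homologue, had 123, 80 and 90 reads and then 0, 1 and 0, a ratio of 317 (interval from 56.4 to 12561).

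The other 4 had no read in 9-1, so only a lower bound can be given against a limit of 3 reads over the group. ZNF667-AS1 had 66, 45 and 76 reads in wild type and was at least 67.4-fold lower. IRAK4, the kinase that relays Toll-like and interleukin-1 receptor signals, had 39, 41 and 56 reads and was at least 49-fold lower. LOC100134868 (77 reads) was at least 27.8-fold lower and ZNF471 (73 reads) at least 26.3-fold lower. Intervals and limits cover counting error only. Clone 9-D held at most 1 read of each of these genes in any library.

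Of the 6 silent genes, 5 lay in 2 groups of neighbours. ZNF667 and its antisense partner ZNF667-AS1 start close together on opposite strands of chromosome 19, and ZNF471 is the next tested gene. PUS7L and IRAK4 are adjacent on chromosome 12. The 250 bases upstream of 3 of them are shown with each CG in capitals, because these neighbours were silent together. They hold 35 CG in ZNF667, 21 in ZNF667-AS1 and 22 in IRAK4, against a median of 21 over the promoters found for all autosomal genes tested. None of the 3 holds GGAGGA or TCCTCC. RefSeq (GRCh38.p14) places them at chr19:56477346-56477595 on the minus strand, chr19:56477624-56477873 on the plus strand and chr12:43758701-43758950 on the plus strand. LOC100134868 lies alone on chromosome 20. DNA methylation was not measured.
ZNF667: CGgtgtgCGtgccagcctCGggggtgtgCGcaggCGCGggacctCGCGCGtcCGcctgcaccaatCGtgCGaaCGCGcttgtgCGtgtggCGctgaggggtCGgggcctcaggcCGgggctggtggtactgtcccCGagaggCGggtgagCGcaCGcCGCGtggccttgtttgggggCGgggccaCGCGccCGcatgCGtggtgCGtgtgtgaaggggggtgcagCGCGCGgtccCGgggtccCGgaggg
ZNF667-AS1: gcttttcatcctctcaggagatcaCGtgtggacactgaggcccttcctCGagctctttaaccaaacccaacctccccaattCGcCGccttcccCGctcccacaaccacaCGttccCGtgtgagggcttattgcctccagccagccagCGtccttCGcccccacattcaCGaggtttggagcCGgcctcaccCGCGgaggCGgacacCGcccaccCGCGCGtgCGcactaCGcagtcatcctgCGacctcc
IRAK4: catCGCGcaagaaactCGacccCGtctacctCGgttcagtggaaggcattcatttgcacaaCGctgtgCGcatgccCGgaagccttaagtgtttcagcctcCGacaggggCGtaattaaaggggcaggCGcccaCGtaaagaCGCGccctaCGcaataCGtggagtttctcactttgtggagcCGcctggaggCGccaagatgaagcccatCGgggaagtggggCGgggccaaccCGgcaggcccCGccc

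The genes on either side were transcribed in the clone. Beside PUS7L and IRAK4, ADAMTS20 was 18.3 ± 1.01 CPM in wild type and 15.6 ± 0.873 in 9-1 (SD, n = 3; log2 -0.22, adjusted p = 0.0711) and TWF1 was 29.5 ± 2.62 and 33.3 ± 2.12 (log2 0.18, adjusted p = 0.0945). Beside the ZNF667 group, ZNF583 was 3.3 and 3.08 CPM (adjusted p = 0.721) and ZFP28 rose from 7.1 to 10 CPM (log2 0.50, adjusted p = 0.003). In both groups the next tested gene on each side was transcribed.

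Other large falls did not meet the rule for silent genes. LINC00664 on chromosome 19 went from 6.34, 6.7 and 6.82 CPM to 0.15, 0.145 and 0 (adjusted p = 2.75e-14), near the limit that a count of 0 allows. S100A6, a calcium-binding protein of proliferating and mesenchymal cells, went from 5.16, 4.75 and 4.21 CPM to 0.299, 0.387 and 0.215 (14.7-fold), while its family member S100A10 rose from 40.2 to 49.4 CPM to 70 to 75.7 (1.6-fold). PCDHGA10, a protocadherin of the gamma cluster, fell 10.2-fold from 14.5 to 16.2 CPM to 1.2 to 1.74. GRIN2A, a subunit of the NMDA glutamate receptor, was uneven in wild type at 79.9, 33.8 and 45.5 CPM and uniformly low in 9-1 at 6.21, 7.69 and 5.94 (7.89-fold, adjusted p = 2.91e-13).

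TERF1 encodes TRF1, the shelterin subunit that binds the double-stranded telomere repeat. It went from 501, 567 and 505 CPM to 94.9, 97.8 and 90 (5.56-fold, log2 -2.47, SE 0.061, adjusted p = 6.68e-24), the smallest p of all genes. Its partner TERF2 fell 1.17-fold, a call lost in 4 of the alternative settings. The other 12 tested shelterin and telomerase genes did not pass, POT1, TINF2, TERF2IP, ACD and TERT among them.

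The remaining large falls had varied roles. FBN2, fibrillin-2 of elastic microfibrils, went from 114, 117 and 116 CPM to 27.7, 33 and 29.9 (3.81-fold, adjusted p = 3.12e-20). SCN4B, a sodium channel subunit, went from 14.9 to 16.2 CPM to 2.39 to 3.87 (4.88-fold). TACR3, the receptor for neurokinin B, fell 4.55-fold, and TAC3, which encodes neurokinin B, fell 2.8-fold. NSMCE1, a subunit of the SMC5/6 complex of chromosome repair, fell 4.14-fold from 14.4 to 17.1 CPM, ALG10B, a glucosyltransferase of N-glycan assembly, 3.87-fold, and C17orf96, a partner of Polycomb complex 2, 4.34-fold.

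Genes of neurons and secretion were more often lower than higher. Of 26 tested glutamate and GABA receptor genes, 8 were lower (30.8%, against 14.6% of all genes) and 0 higher, with a median of -0.29. GRM3 fell from 4.83 to 6.14 CPM to 1.87 to 2.36 (2.72-fold), and GRIK2 2.09-fold. Of 18 tested neuropeptide and secretory granule genes 8 were lower (44.4%) and 4 higher (22.2%, against 14.0% of all genes), with a median of -0.36. CHGA, chromogranin A of the granule core, went from 50.3, 60.3 and 43.8 CPM to 12.6, 14.3 and 15 (3.67-fold, adjusted p = 1.06e-15), and the convertases PCSK1 (log2 -0.91) and PCSK2 (-0.80) fell. VGF, a granule protein, moved the other way, from 40.5, 36.3 and 37.4 CPM to 89, 96.6 and 97.5 (2.48-fold, adjusted p = 2.66e-16), as did GAL, TAC1 (0.93) and PENK (2.51-fold, a call that 2 settings lost).

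Cell surface and matrix genes changed in both directions. Of 34 tested heparan sulfate genes 14 were lower (41.2%, against 14.6% of all genes) and 3 higher (8.82%, against 14.0%). Their median was -0.13, with no change of 2-fold. The falls included B3GAT3, which completes the linker of the chain (34.6 to 42.5 CPM to 22.7 to 25.3, 1.61-fold), GPC6 (1.47-fold), SULF1 (1.43-fold), GLCE (-0.37), XYLT2 (-0.38), SDC1 (-0.33), SDC4 (-0.46), AGRN (-0.38) and HSPG2 (-0.51). UGDH (0.27), HS3ST5 (0.40) and HS3ST1 (1.62-fold, lost in 4 settings) rose, and NDST1, EXT1, HS2ST1 and HS6ST1 did not pass.

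Of 34 collagens, laminins and related genes, 15 were lower (44.1%, against 14.6% of all genes) and 8 higher (23.5%, against 14.0%). NID2, nidogen-2, fell from 13.4 to 15.4 CPM to 5.46 to 6.51 (2.44-fold), LAMA1 (-0.61) and LAMB1 (-0.54) fell, and FN1 rose from 348 to 427 CPM to 515 to 593 (1.48-fold). Of 23 epithelial and mesenchymal adhesion genes 6 were higher (26.1%) and 5 lower (21.7%), with a median of -0.01. CDH1, EPCAM and CDH2 did not pass, and CLDN3 fell from 33.3 to 38.1 CPM to 20.2 to 27.5 (1.45-fold). ZEB1 and ZEB2, repressors of CDH1 in epithelial-mesenchymal transition, fell from 1.67 to 1.9 CPM to 0.524 to 0.93 and from 3.22 to 5.31 CPM to 1.42 to 2.15. Clustered protocadherins, whose reads can be shared between similar genes, were lower in 12 of 50 tested (24%) and higher in 7 (14%). The shares of all genes were 14.6% and 14.0%. PCDHB5 rose from 8.89 to 11.9 CPM to 29.5 to 32.4 (3.09-fold).

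In the integrated stress and unfolded protein list 18 of 28 were higher (64.3%, against 14.0% of all genes) and 0 lower, with a median of 0.19 and no member above 0.77. DDIT3, the factor CHOP, went from 4.18, 4.4 and 5.82 CPM to 9.35, 8.07 and 7.23 (1.7-fold, adjusted p = 0.000331), ATF5 rose 1.61-fold, CHAC1 1.55-fold and the cystine transporter SLC7A11 1.42-fold. HSPA5, PHGDH and DDIT4 did not pass. Of 18 heat shock chaperones 5 were higher (27.8%, against 14.0% of all genes) and 1 lower (5.56%, against 14.6%). Of 20 apoptosis regulators 9 were higher (45%) and 1 lower (5%), with rises on both sides of the balance: BCL2 (1.51-fold) and MCL1 (0.22) block death, and HRK (2.05-fold) and PMAIP1 (0.30) promote it.

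Changes in growth and metabolism genes stayed under 2-fold, and some of these lists held more called genes than the whole. Of 29 cholesterol and fatty acid genes 10 were higher (34.5%, against 14.0% of all genes) and 2 lower (6.9%, against 14.6%), with MVD (1.29-fold), LSS (1.23-fold) and HMGCS1 (1.2-fold) among the rises. Of 31 hypoxia and glycolysis genes 9 were higher (29%), such as VEGFA (1.37-fold) and PFKP (1.36-fold), and 5 lower (16.1%), such as ADM (1.56-fold). G2 and mitosis genes were higher in 6 of 30 (20%) and lower in 2 (6.67%), with PLK1 up 1.34-fold and CDC25B down 1.41-fold. The shares called higher were near the 14.0% of all genes for cytosolic ribosomal proteins (12.7%) and mitochondrial ribosomal proteins (14.3%), and below it for oxidative phosphorylation (7.89%). Among interferon-induced genes, BST2, a membrane tether of viruses, fell from 32.7, 38.4 and 33.3 CPM to 15, 16 and 15.7 (2.23-fold), and IFITM1 rose from 148 to 175 CPM to 249 to 285 (1.61-fold). That list had 6 higher (17.6%, near the 14.0% of all genes) and 9 lower (26.5%, against 14.6%) of 34.

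Of 36 DNA methylation and Polycomb genes 8 were higher (22.2%) and 3 lower (8.33%): beside DNMT3B and DNMT3L, KDM2B rose from 133 to 146 CPM to 181 to 194 (1.34-fold), TET1 by 0.20 and JARID2 by 0.16, and PHC2, a subunit of Polycomb complex 1, fell from 26.2, 19.4 and 19.5 CPM to 7.78, 8.02 and 9.02 (2.63-fold). EZH2, EED, DNMT1 and DNMT3A did not pass. The SCAN-domain family of ZNF263 had 3 higher (7.32%) and 5 lower (12.2%) of 41, both below the shares of all genes. Zinc finger genes of chromosome 19, many of them similar in sequence, were higher in 54 of 238 tested (22.7%) and lower in 16 (6.72%), with a median of 0.09. Of these, 7 rose and 4 fell at least 2-fold, ZNF528, ZNF585B, ZNF667 and ZNF471 among them. Of 27 tested imprinted genes 5 were higher (18.5%) and 3 lower (11.1%), near the 14.0% and 14.6% of all genes, and the fall of DLK1 (2.29-fold) came with overlapping groups and was lost in 1 setting. H19 and MEG3 had too few reads to be tested.

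Some changes of at least 2-fold lay side by side. Chosen after their values were seen, runs of adjacent tested genes that all passed 2-fold in the same direction numbered 31, held 72 of the 432 genes changed this much and were higher in 17 cases and lower in 14. The longest held 5 metallothionein genes of chromosome 16, small proteins that bind zinc and copper. MT1G went from 2.09, 2.03 and 1.55 CPM to 8.23, 7.78 and 8.16 (4.26-fold, adjusted p = 1.01e-10) and MT1X from 5.1, 8.24 and 7.5 CPM to 20.5, 23.4 and 22.5 (3.21-fold), with MT1E, MT1F and MT1H between 3.02-fold and 3.97-fold. These genes are similar in sequence, and reads may have been shared between them.

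On chromosome 13, CCDC169 (0.31 to 0.349 CPM to 2.92 to 4.06, 10.7-fold), SPG20 (2.35-fold), SPG20-AS1 and CCNA1 rose together. ZNF880, ZNF528-AS1, ZNF528 and ZNF578 rose together on chromosome 19, where ZNF528 went from 0.131, 0.279 and 0 CPM to 2.24, 2.71 and 2.51. On chromosome 7, CAV1, caveolin-1, rose from 17.4 to 20.6 CPM to 40.7 to 47.8 (2.39-fold) beside CAV2 (2.61-fold). KCNB2, TERF1 and SBSPON fell together on chromosome 8: KCNB2 from 0.98 to 1.49 CPM to 0.358 to 0.435 and SBSPON from 7.25 to 8.87 CPM to 2.22 to 3.52. RPL7, the next gene, was 861 to 945 CPM and then 884 to 939 (log2 0.01). Some runs hold a gene and its antisense partner, and the counting is not stated to use strand, so their reads cannot be told apart.

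**Figure D4:**
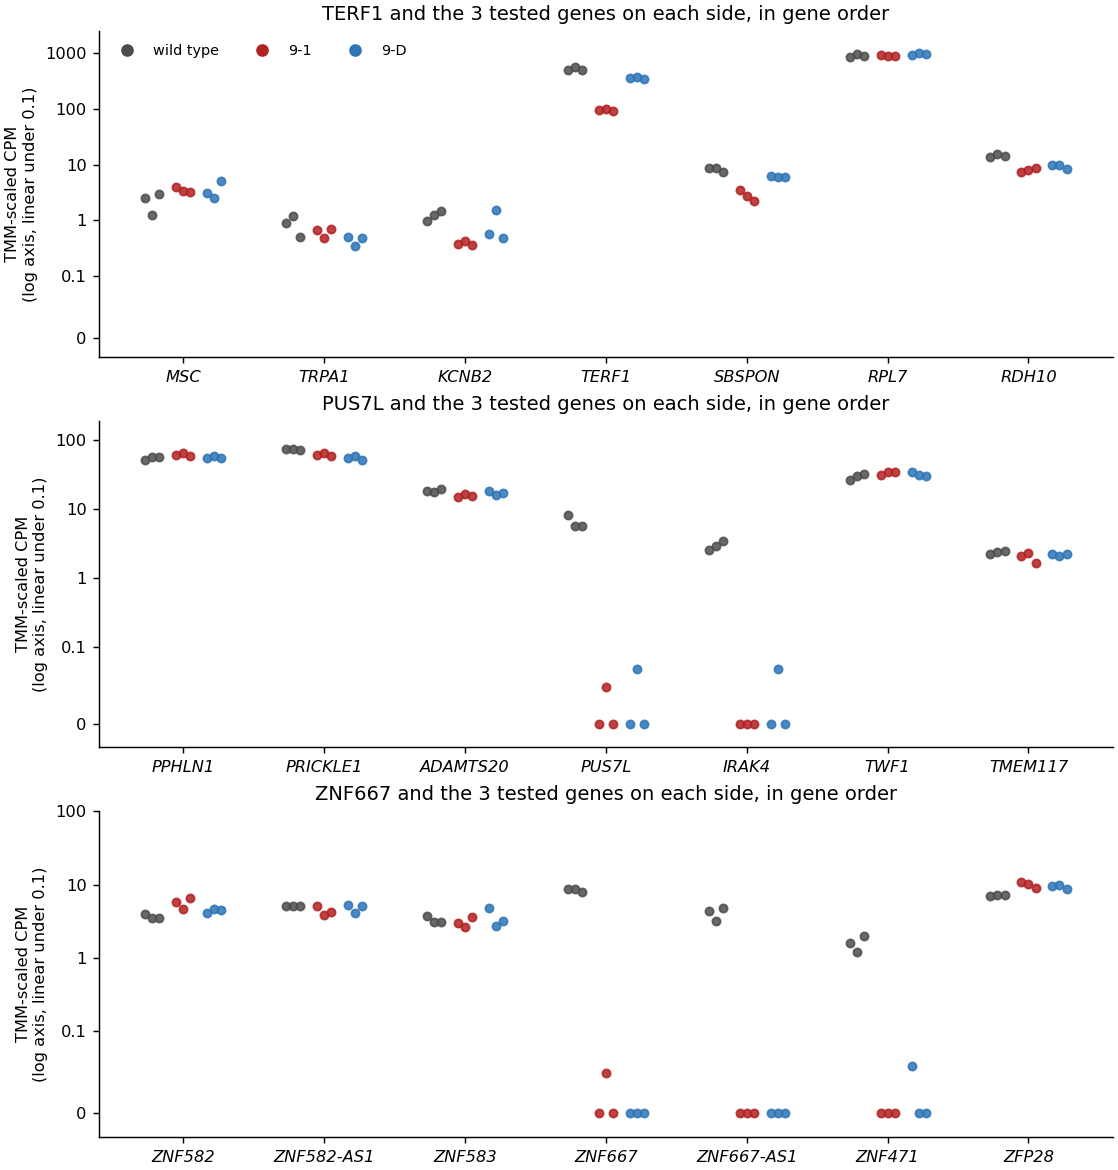
Level in each library (y axis, TMM-scaled CPM on a log axis that is linear under 0.1) of TERF1, PUS7L and ZNF667 and of the 3 tested genes on each side, in gene order. Grey is wild type, red 9-1 and blue 9-D, whose values were scaled in the fit of all 9 H9 libraries. PUS7L, IRAK4, ZNF667, ZNF667-AS1 and ZNF471 lie at or near 0 in both clones, and TERF1 and SBSPON are lower in 9-1 than in 9-D.

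Few genes separated clone 9-1 from clone 9-D. The clones share their wild-type controls, so they were tested against each other directly, in a fit of 9 libraries. Of 14577 autosomal genes tested there, 36 differed (0.247%), 19 higher and 17 lower in 9-1, and 29 of the 36 also differed between 9-1 and wild type, 16 of them by at least 2-fold. Leaving out 1 library at a time gave 17 to 44 genes, with 17 to 21 without any 1 library of 9-1 or without replicate 2 or 3 of 9-D, and 11 of the 36 were called under every alternative.

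The clearest was TERF1, at 94.9, 97.8 and 90 CPM in 9-1 and 363, 368 and 338 CPM in 9-D, against 501 to 567 in wild type (9-1 over 9-D log2 -1.93, SE 0.062, adjusted p = 2.03e-23). Both clones lay below wild type and their libraries did not overlap. SBSPON beside it was lower in 9-1 than in 9-D (log2 -1.12, adjusted p = 0.000353), and KCNB2 did not pass (-1.08, adjusted p = 0.66). MAGI2, a synaptic scaffold, was 12.9 to 13.9 CPM in 9-1 and 23.1 to 27.2 in 9-D, close to the 22.8 to 25.2 of wild type (log2 -0.93, adjusted p = 4.18e-08).

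NKAIN2, which lies beside TRDN, was 2.92, 2.18 and 4.87 CPM in 9-1, 0.364 to 0.709 in 9-D and 0.349 to 0.929 in wild type (9-1 over 9-D log2 2.61, SE 0.36, adjusted p = 2.55e-05), while TRDN did not differ by the test (-0.11, adjusted p = 0.851). ASPG, an asparaginase, was 0.0965 CPM on average in 9-1, 0.765 in 9-D and 1.61 in wild type (log2 -3.09, adjusted p = 0.0145, lost in 4 settings). These 2 were named after their values were seen. LOC101928254 and PDCL3P4 were higher in 9-1 than in 9-D (6.07 against 2.08 CPM and 7.59 against 4.22 CPM) and DPEP3 was lower (11.7 against 18.7 CPM), all above wild type in both clones. The PDCL3P4 call was lost in some settings.

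SERPINB9 was 356 to 381 CPM in 9-1 and 262 to 289 in 9-D (log2 0.41, adjusted p = 2.55e-05). GDA was 21.5 to 23.3 and 15.2 to 17.1 (log2 0.47, adjusted p = 0.0126, lost in 3 settings), VGF 89 to 97.5 and 71.4 to 73.7 (log2 0.37, adjusted p = 0.00121), and FBN2 27.7 to 33 and 34.4 to 42.3 (log2 -0.36, adjusted p = 0.0264, lost in 5 settings). HBD, a globin gene, rested on the second 9-1 library: the 3 libraries held 0.224, 18.6 and 1 CPM, and without the second the difference from 9-D was -0.77 in place of 2.79. HBB beside it was 0.823, 31.4 and 1.43 CPM, and without that library HBD and HBB stood at log2 -1.54 and -1.41 against wild type.

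**Figure D5:**
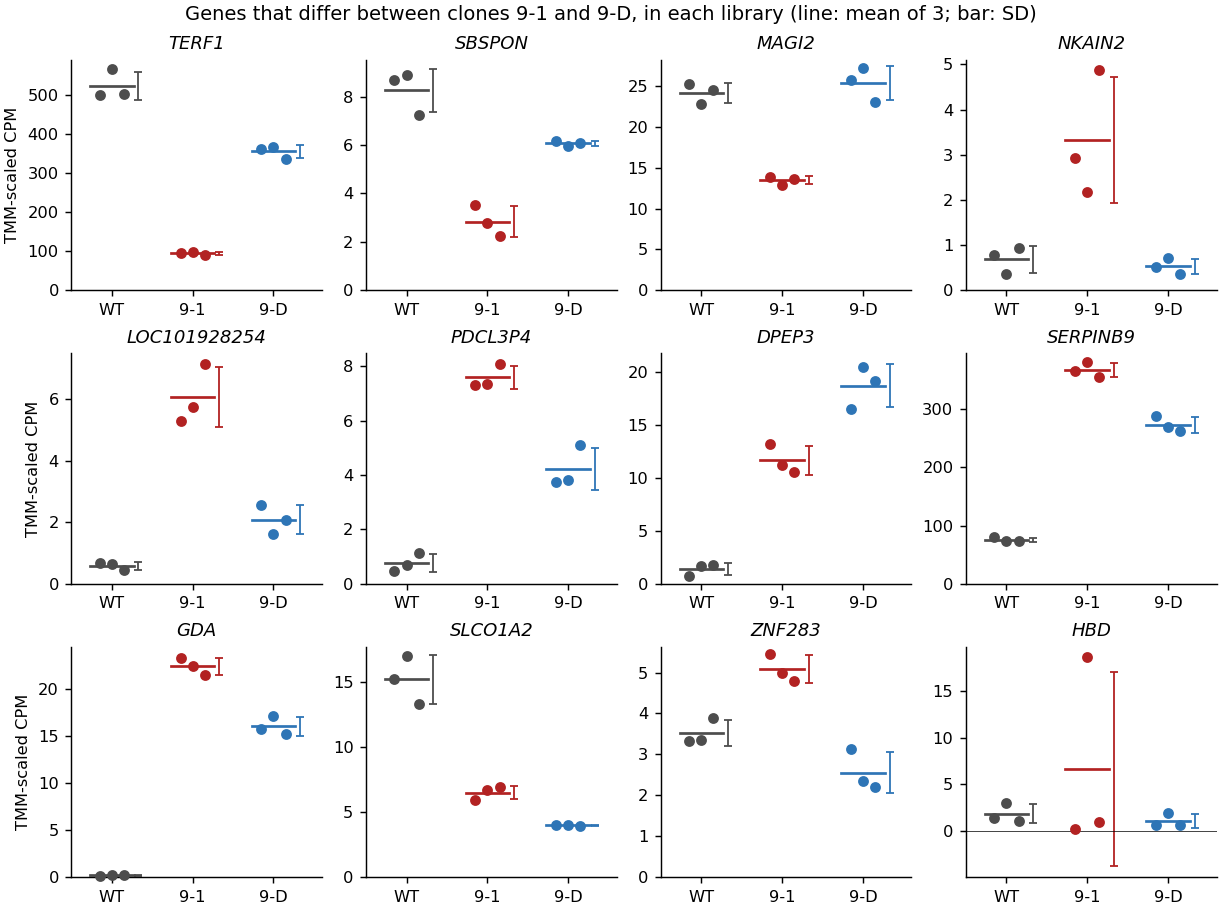
Level of 12 of the 36 genes that differ between the clones, in each library (y axis, TMM-scaled CPM; grey wild type, red 9-1, blue 9-D; lines are means of 3 and bars SD). Wild type and 9-1 were scaled in their own fit and 9-D in that of 9 libraries. TERF1 is lowest in 9-1 and between the others in 9-D, MAGI2 is low and NKAIN2 high in 9-1 alone of these 3 groups, and the HBD mean of 9-1 comes from 1 library.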

How the data were processed

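RNA-seq counts of H9 wild type, clone 9-1 and clone 9-D (3 libraries each) were used as deposited. Per the submitters' processing notes the authors aligned reads with STAR to hg19, counted them with featureCounts and compared them with DESeq2, with no versions, and the deposited whole read counts per gene symbol carry no normalization. Gene names, chromosomes, neighbours and promoter sequences came from RefSeq GRCh38.p14, where 24340 of 27130 symbols matched directly and 1347 by an older name. That build is not the one used for counting. The 1443 unmatched symbols and the genes of chromosomes X and Y stayed in the fit and were not described.

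Clone 9-1 was tested against wild type with edgeR 4.0.16 (R 4.3.3): TMM, filterByExpr by group, quasi-likelihood F test and Benjamini-Hochberg adjustment over all 15177 genes tested, threshold 0.05. Genes with few reads in wild type or in 9-1 could pass the filter through the other group alone. SE was derived from each log2 fold change and its F statistic. The script was tested on simulated counts. Replicates varied more than counting error (chi-square per gene 2.23 to 4.75). Alternatives were DESeq2 1.42.0, RLE scaling, no filter, a fit of 3 groups, the replicate block, autosomal genes alone and each library left out. Lists and members were chosen with earlier results of these data known. Named were ZNF263 and 5 stem cell genes, the 12 largest rises and falls of at least 5 CPM, the 6 smallest p, up to 4 genes a list, silent genes and clone differences, and further list members were named by their role after their values were seen. The largest rises and falls were taken only from called genes whose groups did not overlap. Promoters were found for 78.4% of tested genes, under 80%, so motif shares of gene sets were not tested against each other. A few genes and 1 list are not reported here.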

Additional observations from a re-analysis of the deposited data

Results flagged for a closer look

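A direct test called 29 genes both between 9-1 and wild type and between the 2 H9 knockout clones, and 12 of the 29 are given here. As log2 values of 9-1 over 9-D, the higher ones of the 12 were HBD (2.79), LOC101928254 (1.51), ZNF283 (0.97), PDCL3P4 (0.83), SLCO1A2 (0.70) and SLC44A5 (0.61). The lower ones were TERF1 (-1.93), SBSPON (-1.12), MAGI2 (-0.93), DPEP3 (-0.70), PRKCDBP (-0.55) and FBN2 (-0.36). Of these, TERF1, SBSPON, MAGI2, DPEP3 and LOC101928254 were called under every alternative tried. The others lost the call in at least 1 setting, with DESeq2 for HBD (adjusted p = 0.999), SLC44A5 (adjusted p = 0.117) and PDCL3P4 (adjusted p = 0.0575). HBD also rested on 1 library.

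In SLCO1A2, an organic anion transporter, and SLC44A5, a choline transporter-like gene, both clones were below wild type and 9-D was the lower: SLCO1A2 was 15.2 CPM in wild type, 6.48 in 9-1 and 3.96 in 9-D, and SLC44A5 was 14.8, 6.89 and 4.5. PRKCDBP, a caveolar protein, was above wild type in both, at 3.35 CPM in wild type, 13.7 in 9-1 and 19.9 in 9-D. ZNF283 was 3.53 CPM in wild type, 5.08 in 9-1 and 2.55 in 9-D.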

How the results depend on the processing

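Under every alternative for 9-1 against wild type, the genes called higher numbered 1459 to 2275, those called lower 1560 to 2262 and those changed at least 2-fold 381 to 514, each within 1.5 times the value given. Of 4107 called genes DESeq2 shared 3118. Same-numbered libraries of the 2 groups did not deviate together (correlations 0.065, 0.03 and -0.009), so the numbers were not taken as pairs. With the replicate block 2275 genes were higher, 2262 lower, 433 changed at least 2-fold and 41 differed between clones. The 36 clone differences became 17 to 44 with 1 library left out, and 28 to 50 under the other settings.

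Of 235 genes named or lying in runs, 233 were called, 192 under every alternative, and 41 lost the call at least once. Directions turned for CER1 without the third 9-1 library (range -0.01 to 0.98 over libraries left out) and, without the second, for HBD (-1.54 to 2.54), HBB (-1.41 to 2.98) and HBD between clones (-0.77 to 3.48). The causes were not tested. Of 504 list medians under an alternative, 10 moved beyond the spread, over 7 of 42 lists. Depth limits genes under about 1 CPM, where 39 of 690 tested were called higher and 49 lower.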
